A study of Mus musculus with 16 samples.

Results

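The genes examined here encode the constant regions of mouse antibodies and the chain that joins antibodies into polymers. They were taken as a named list of 10 of the 22298 genes counted in every tumor, comprising the heavy-chain genes Ighm, Ighd, Ighg3, Ighg1, Ighg2b, Ighg2c and Igha, the light-chain genes Igkc and Iglc1, and Jchain. All 10 were present in the files, and each had at least 10 counts over the 16 tumors. The tumors formed in the abdominal cavity of wild-type 615-line mice injected with MFC cells, a murine gastric cancer line. One group received PBS (the control group, 8 tumors) and the other received IL-33, a cytokine of the interleukin-1 family, into the peritoneal cavity (the IL-33 treatment group, 8 tumors). Both groups carried the same tumor cells in hosts of genotype WT, and the labels do not give the age of the animals. Krt8, a keratin of epithelial cells, was at 181 to 975 CPM in the 16 tumors (CPM, the counts of a gene scaled to a common library total). The question was how intraperitoneal IL-33 affects the immune cells of peritoneal tumors, and the antibody genes bear on its B-lineage cells. Each library was made from bulk tumor tissue, so fewer cells of a type and less RNA per cell cannot be told apart.

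A B cell first uses Ighm and Ighd to make IgM and IgD. After activation it can cut out the DNA between Ighm and a downstream constant gene and switch to IgG, IgE or IgA, while its antigen-binding region stays the same. A plasma cell, the end stage of this lineage, devotes much of its RNA to secreted antibody, so a small number of such cells can set the level of these genes in a tissue. The choice of class is known to depend on cytokines: type 2 cytokines favor IgG1 and IgE in mice, interferon-γ favors IgG2c, and TGF-β favors IgA.

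On chromosome 12 of GRCm38 the heavy-chain genes lie on the minus strand in the order Ighm, Ighd, Ighg3, Ighg1, Ighg2b, Ighg2c, Ighe and Igha, and Igha starts 162 kb downstream of the start of Ighm. Igkc lies on chromosome 6, Iglc1 on chromosome 16 and Jchain on chromosome 5. The 4 IgG genes differ most visibly in the hinge, a short exon between the antigen-binding arm and the stem of the antibody, whose cysteines tie the heavy chains together. Their hinge exons are shown because the counts of these 4 genes carry much of the isotype mix below. They span chr12:113360529-113360576 for Ighg3, chr12:113329844-113329882 for Ighg1, chr12:113307261-113307326 for Ighg2b and chr12:113288263-113288325 for Ighg2c, and capitals mark the cysteine codons read in frame.
Ighg3: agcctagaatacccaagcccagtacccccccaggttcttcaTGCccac
Ighg1: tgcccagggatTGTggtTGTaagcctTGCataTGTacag
Ighg2b: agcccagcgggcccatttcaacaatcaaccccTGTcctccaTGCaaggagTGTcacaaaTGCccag
Ighg2c: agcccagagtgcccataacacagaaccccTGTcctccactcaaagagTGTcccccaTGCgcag
The exon holds 1 cysteine codon in Ighg3, 3 in Ighg2c and 4 each in Ighg1 and Ighg2b. Over the secreted coding sequence Ighg2b and Ighg2c were identical at 85.6% of aligned bases, and the other pairs of IgG genes at 73.7% to 75.6%. Of all 50-base windows in its exons, Ighg2c shared 5.49% with another constant gene, Ighg2b 4.15%, Ighg3 1.58% and Ighg1 0.393%, whereas no window of 100 bases was shared. A few reads could therefore have been assigned to more than 1 IgG gene, above all between Ighg2b and Ighg2c.

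IgM and IgA are the classes that Jchain joins into polymers, through a cysteine in the tail of the secreted heavy chain. The last 60 coding bases of both are shown for this reason, from chr12:113420867-113420926 for Ighm and chr12:113258768-113258827 for Igha, again with the cysteine codon in capitals and ending in the stop codon.
Ighm: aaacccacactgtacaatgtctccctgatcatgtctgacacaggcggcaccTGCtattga
Igha: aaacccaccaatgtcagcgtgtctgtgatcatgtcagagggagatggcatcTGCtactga
In both genes the cysteine is the next-to-last amino acid. All sequences are from the GENCODE M21 annotation of GRCm38, 5′ to 3′ on the coding strand.

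Antibody genes took a small and very uneven part of each library. Total counts ran from 14139268 to 24290794 in control tumors and from 16569613 to 24288893 in IL-33 tumors, and all annotated immunoglobulin genes together made up 0.00129% to 0.319% of them. The counts of the 7 heavy-chain genes summed to between 111 and 19877 per tumor. IL-33 replicate 7 stood apart. Ovgp1, the oviductal glycoprotein, was at 923 CPM there and at most 2.83 CPM in the other 15 tumors, and Pgr, the progesterone receptor, was at 98.0 CPM there and at most 0.984 CPM elsewhere. Results are therefore given with and without this tumor. Replicates were separate tumors by their labels, and whether each came from its own mouse is not known here. The tests treat the tumors of a group as independent, and p-values set the group difference against the spread between these tumors.

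The summed level of the heavy-chain genes in the control group was 10.4, 701, 278, 60.3, 27.0, 20.9, 150 and 62.8 CPM in replicates 1 to 8. In the IL-33 treatment group it was 146, 42.3, 437, 1162, 442, 6.00, 1130 and 743 CPM. The lowest tumor of all, replicate 6, and the highest, replicate 4, both belonged to the IL-33 treatment group, and the groups overlapped widely. On the log2(CPM + 0.5) scale the mean was 6.17 ± 2.01 (SD, n = 8) in control and 7.84 ± 2.62 (SD, n = 8) in IL-33 tumors, a difference of 1.67 that is given as a description.

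**Figure D1:**
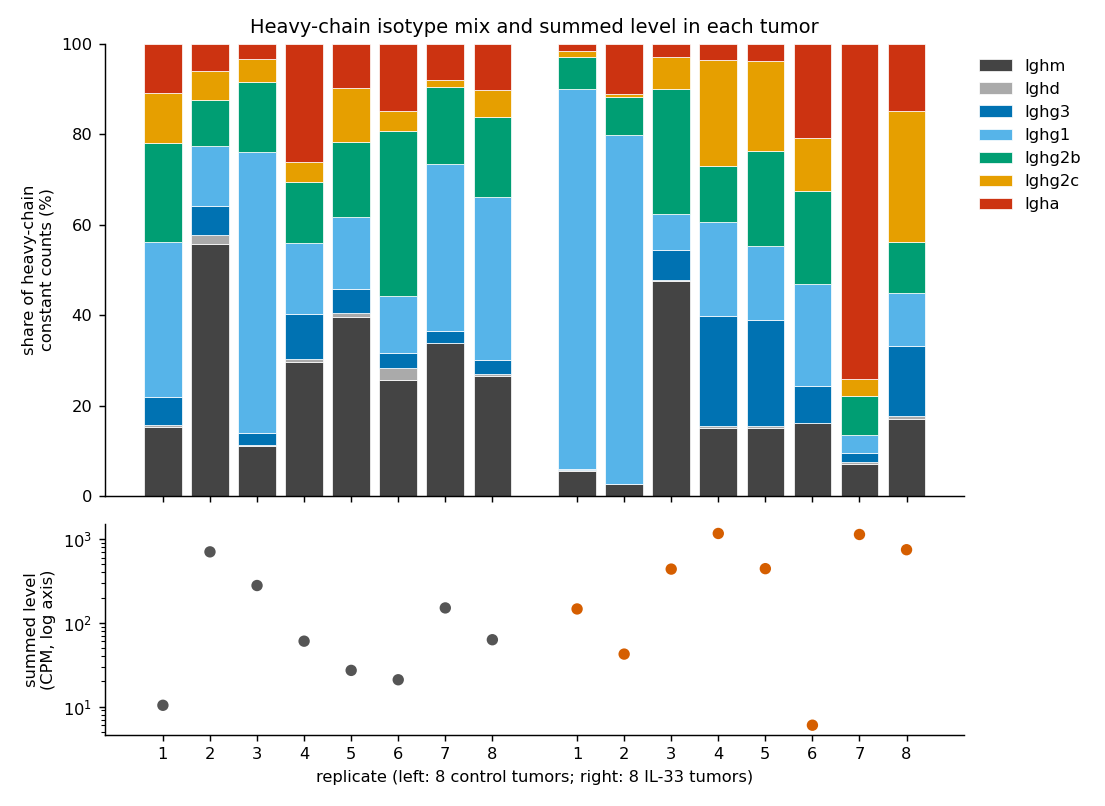
Upper panel: share of each of the 7 heavy-chain genes in the heavy-chain constant counts of each tumor (%), stacked to 100. Lower panel: summed level of these genes (CPM, log axis). IL-33 replicates 1 and 2 are mostly Ighg1 (84.1% and 77.2%), IL-33 replicate 7 is mostly Igha (74.2%), and the summed level runs from 6.00 to 1162 CPM.

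The isotype mix differed from tumor to tumor, and no single isotype led in either group. Among control tumors Ighg1 led in replicates 1, 3, 7 and 8 with 34.3%, 62.0%, 36.9% and 35.9% of heavy-chain constant counts. Ighm led in control replicates 2, 4 and 5 with 55.7%, 29.5% and 39.7%, and Ighg2b led in control replicate 6 with 36.6%. The control tumors were thus led by IgG1, IgM or IgG2b, and none by Ighg3, Ighg2c or Igha.

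IL-33 tumors spread over more kinds of mix. Ighg1 made up 84.1% (exact 95% interval 82.8% to 85.4%) of the counts in replicate 1 and 77.2% (73.9% to 80.2%) in replicate 2, above every control tumor. Ighm led in replicate 3 with 47.6%. Ighg3 led in replicates 4 and 5 with 24.3% and 23.5%, and Ighg2c led in replicate 8 with 29.1%. These 3 tumors resembled each other, in that Ighg2c and Ighg3 together formed 59.2%, 53.8% and 65.9% of their IgG counts, compared with at most 35.2% in any control tumor. Igha, which encodes the antibody of mucosal surfaces, took 74.2% (73.6% to 74.8%) in replicate 7. Replicate 6 had only 111 heavy-chain counts, and its leading gene, Ighg1, held 22.5% of them with an interval from 15.1% to 31.4%. The intervals are Clopper-Pearson intervals and cover counting error only.

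Read length-wise, most of these leaders held. The annotated secreted transcripts of the IgG genes and Igha are nearly equal in length (1076 to 1114 bases), and that of Ighm is longer (1493 bases). With counts taken per base of the secreted transcript, the leading gene was another in 1 of 16 tumors, control replicate 4, where Igha (28.2%) came before Ighm (23.4%). Per base of all annotated exons the leader was another in 5 of 16, and Ighg2c then led IL-33 replicates 4, 5, 6 and 8. The exons of Ighg2c are annotated over 1326 bases and those of the other IgG genes over 2512 to 2678, because the last membrane exon of Ighg2c is annotated over 84 bases only.

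The evenness of the mix was also more variable in the IL-33 treatment group. Expressed as an effective number of isotypes (the exponential of the Shannon entropy of the 7 shares), it lay between 3.34 and 5.35 in control tumors and between 1.90 and 5.80 in IL-33 tumors. Replicates 1, 2 and 7 of the IL-33 treatment group, at 1.90, 2.19 and 2.65, were lower than every control tumor, while replicates 4, 5, 6 and 8, at 5.47 to 5.80, were higher than every control tumor. This order was noticed after the values were seen and was not tested.

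Compared as group means, the share of Ighm was 29.7% ± 14.0 (SD, n = 8) in control and 15.8% ± 14.0 (SD, n = 8) in IL-33 tumors. Its lowest, median and highest values were 11.1%, 28.1% and 55.7% in control and 2.57%, 15.1% and 47.6% in IL-33 tumors, so that the groups overlapped and 3 IL-33 tumors were under every control. The difference of −13.9 percentage points did not pass a two-sided exact permutation test (p = 0.0681), and was −12.6 points without IL-33 replicate 7 (exact permutation p = 0.112). It depended on the tumors and the scale. Without IL-33 replicate 3, the tumor led by Ighm, it was −18.4 points (exact permutation p = 0.00497). Without control replicate 1 or 3 it was −16.0 or −16.5 points (exact permutation p = 0.0468 and 0.0353). On the scale of log2(Ighm counts over the other isotypes) it was −1.48 (exact permutation p = 0.0407). In all, 5 alternative settings passed the threshold.

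Ighd, which marks naive B cells together with Ighm, formed 0.931% ± 0.946 (SD, n = 8) of the counts in control and 0.280% ± 0.196 (SD, n = 8) in IL-33 tumors, with control values from 0.114% to 2.65% and IL-33 values from 0 to 0.515%. The difference of −0.65 points was likewise not past the threshold (exact permutation p = 0.0561, and p = 0.0730 without IL-33 replicate 7). It passed without control replicate 1, 3, 7 or 8 in turn, at −0.72 to −0.77 points (exact permutation p = 0.0146 to 0.0441). In all, 5 alternative settings passed the threshold. Ighd had no count in IL-33 replicate 6, where 0 of 111 heavy-chain counts allows a share of up to 2.70%.

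Among the IgG genes, Ighg3 formed 4.93% ± 2.50 (SD, n = 8) in control and 10.1% ± 9.93 (SD, n = 8) in IL-33 tumors, and Ighg2c 6.37% ± 3.47 and 12.1% ± 10.9. For both genes IL-33 replicates 4, 5 and 8 were above every control tumor, whereas IL-33 replicates 1 and 2 were under every control tumor. The differences of 5.13 and 5.76 points did not pass the exact permutation test (p = 0.194 and 0.178, and p = 0.126 and 0.121 without IL-33 replicate 7). On the log2 scale of the isotype over the other isotypes the difference for Ighg3 had the opposite sign (−0.30, exact permutation p = 0.793). Ighg1 formed 28.4% ± 17.3 and 30.6% ± 31.6, with 2 IL-33 tumors over and 3 under every control tumor (exact permutation p = 0.879, and p = 0.665 without IL-33 replicate 7), and the sign of its difference changed with the log2 scale and without IL-33 replicate 1 or 2 or control replicate 6. Ighg2b formed 18.6% ± 8.01 and 14.6% ± 7.50 (exact permutation p = 0.333, and p = 0.471 without IL-33 replicate 7). For Igha the means were 11.1% ± 6.97 and 16.6% ± 24.3 (exact permutation p = 0.764), and without IL-33 replicate 7 the IL-33 mean was 8.34% and the difference −2.77 points (exact permutation p = 0.470). None of the 7 shares passed in the main test, and the p-values are not adjusted over the 7. A p over the threshold does not show that the shares were alike.

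The levels of the 10 genes were compared across all genes with edgeR's quasi-likelihood test. After Benjamini-Hochberg adjustment none of the 10 was called, as was none of the 16817 genes tested (0%; smallest adjusted p 0.418), and DESeq2 also called 0. At an unadjusted p under 0.05, edgeR put 6 of 10 higher in IL-33 tumors (Ighg3, Ighg2c, Igha, Igkc, Iglc1 and Jchain) and 0 lower, where 9.99% of all genes were higher and 1.17% lower. DESeq2 also put 6 higher, with Ighg2b in place of Igha, where 424 of 16817 genes were higher and 267 lower. Without IL-33 replicate 7, edgeR put 4 higher (Ighg3, Ighg2c, Iglc1 and Jchain), where 1.83% of the 15803 genes then tested were higher, 2.29% lower and 0% called after adjustment (DESeq2 called 1, which is not among the 10). By the exact permutation test of log2(CPM + 0.5), 0 of 10 were under 0.05, and the smallest p was 0.0873, for Jchain. The median log2 fold change of the 10 genes was 2.33, and that of all genes 0.0558. Without IL-33 replicate 7 these were 1.75 and −0.0115.

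The edgeR count also moved with single tumors. It was 3 without IL-33 replicate 4, the tumor with the highest summed level, where 1777 of 16776 genes were higher. Where 1538 of 16770 genes were higher, it was 8 without control replicate 2, which was the highest control tumor for every gene but Ighg1. Leaving that tumor out added Ighd (unadjusted p 0.0269) and Ighg2b (unadjusted p 0.0222). The count was 4 without each of control replicates 1, 5, 7 and 8 and IL-33 replicate 8. Over all genes, 1341 to 1844 were higher in these fits. Igkc lost its call without any 1 of 12 tumors, among them IL-33 replicate 4 (unadjusted p 0.106), Ighg3 without control replicate 1, 5, 7 or 8 or IL-33 replicate 4 (0.0501 to 0.0965), and Iglc1 without IL-33 replicate 4 or 8 (0.103 and 0.0580).

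**Figure D2:**
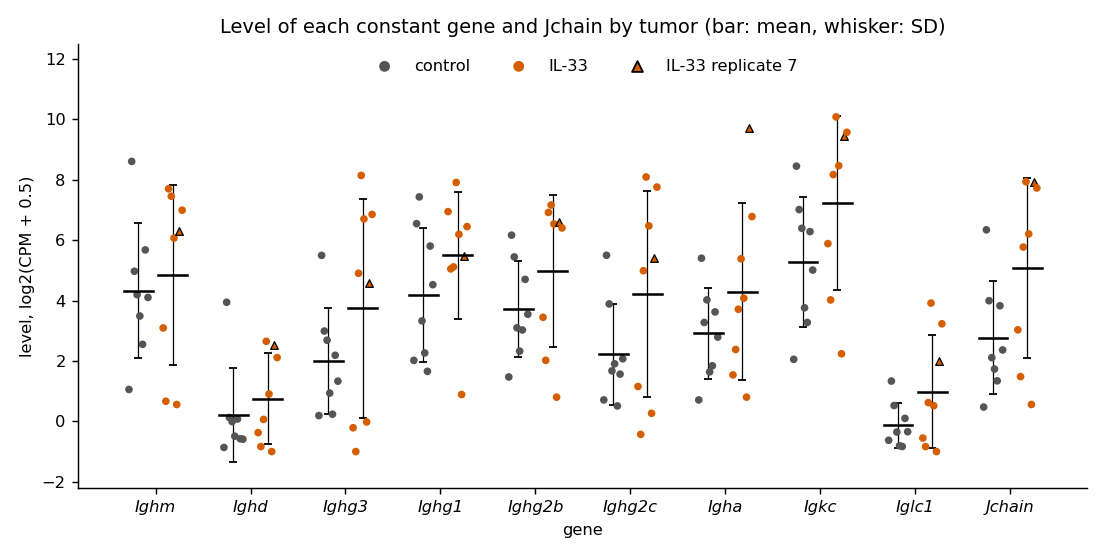
Level of each gene as log2(CPM + 0.5) in each tumor, with the mean (bar) and SD (whisker) of 8 control and 8 IL-33 tumors. The groups overlap for every gene, and IL-33 replicate 7 (triangle) is separate from the other tumors for Igha only, at 838 CPM.

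For Ighm, the first isotype of a B cell, the difference in level was smaller than its error. Its lowest, median and highest values were 1.58, 17.3 and 390 CPM in control and 0.973, 72.8 and 208 CPM in IL-33 tumors. Control replicate 2 was the highest of all 16 and held 72.3% of the control group's Ighm counts. The log2 fold change was 0.30 ± 1.05 (SE; adjusted p = 0.959), and 0.33 without IL-33 replicate 7, but 1.98 without control replicate 2 (unadjusted p = 0.0540). Ighd ran from 0.0494 to 14.9 CPM in control tumors and from 0 to 5.79 CPM in IL-33 tumors, with a mean of 2.14 CPM in both groups. Its log2 fold change of −0.10 ± 1.15 (SE; adjusted p = 0.989) changed sign with the setting, and it was 2.45 without control replicate 2.

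The largest fold changes among the IgG genes were those of Ighg2c and Ighg3. Ighg2c, the IgG that interferon-γ favors, had a lowest, median and highest value of 0.925, 2.97 and 44.8 CPM in control and 0.241, 36.8 and 273 CPM in IL-33 tumors. IL-33 replicates 4, 5 and 8 (273, 88.5 and 216 CPM) were above every control tumor, while replicates 2 and 6 (0.241 and 0.703 CPM) were under every control tumor. The fitted log2 fold change was 3.09 ± 1.16 (SE; unadjusted p = 0.0164, adjusted p = 0.418), 3.20 without IL-33 replicate 7 (unadjusted p = 0.0166), and the exact permutation p was 0.158.

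Ighg3, an IgG known for responses to polysaccharides, followed the same tumors, with 282.9, 104 and 115 CPM in IL-33 replicates 4, 5 and 8. Its lowest, median and highest values were 0.642, 3.04 and 44.7 CPM in control and 0, 26.4 and 283 CPM in IL-33 tumors, the 0 being IL-33 replicate 2, whose depth allows up to 0.181 CPM. Its log2 fold change was 2.96 ± 1.26 (SE; unadjusted p = 0.0309, adjusted p = 0.418), 3.10 without IL-33 replicate 7, and the exact permutation p was 0.237. The 3 tumors with much Ighg2c were thus the 3 with much Ighg3.

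Ighg2b was above every control tumor in 5 of 8 IL-33 tumors, the most of any of the genes. Its values were 2.27, 9.63 and 71.4 CPM (lowest, median, highest) in control and 1.24, 88.4 and 143 CPM in IL-33 tumors. The log2 fold change of 1.59 ± 0.82 (SE; unadjusted p = 0.0684) was not past the threshold by edgeR, and was by DESeq2 (unadjusted p = 0.0322, adjusted not past the threshold). Ighg1, the IgG that type 2 cytokines favor, ran from 2.65 to 173 CPM in control tumors and from 1.35 to 241 CPM in IL-33 tumors, and only IL-33 replicate 4 was above every control tumor. Its log2 fold change was 0.75 ± 0.85 (SE; adjusted p = 0.810) and 0.86 without IL-33 replicate 7. It was 1.49 without control replicate 3 (unadjusted p = 0.0959) and 0.29 without IL-33 replicate 4 (unadjusted p = 0.740).

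Ighe, which encodes IgE, was read 20 times in each group. Of these, 15 reads came from control replicate 3 and 8 from IL-33 replicate 7. A difference in Ighe was not detectable at this depth.

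Igha was set by 1 tumor. Its values were 1.14, 7.80 and 41.9 CPM (lowest, median, highest) in control and 1.24, 14.5 and 838 CPM in IL-33 tumors. IL-33 replicate 7 held 78.4% of the group's Igha counts and stood 7.64-fold above the next tumor, IL-33 replicate 8 at 110 CPM. The log2 fold change was 3.14 ± 1.16 (SE; unadjusted p = 0.0149, adjusted p = 0.418) with all tumors and 1.08 (unadjusted p = 0.226) without IL-33 replicate 7, and the group mean was 128 ± 289 CPM (SD, n = 8) with it and 26.9 ± 39.0 CPM (SD, n = 7) without it.

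In the same tumor, genes of other tissues stood high. Of 8 uterus and oviduct genes, 7 were higher in IL-33 tumors with all 16 tumors (unadjusted p under 0.05), where 9.99% of all genes were higher. Without IL-33 replicate 7 the count was 0, where 1.83% of all genes were higher. The median log2 fold change of the list was 5.20 with all tumors and −0.029 without that tumor, where Wnt7a had too few counts to be tested. The summed level of this list was 1783 CPM in IL-33 replicate 7 and 259 to 986 CPM in control tumors, where Krt8, a keratin of many epithelia, made up most of it. Of 6 gut epithelium genes tested, 3 were higher with all tumors (Pigr, Lgals4 and Cdhr5). Without replicate 7 the count was 0, but Cdhr5 then had too few counts to be tested. The list's summed level was 54.5 CPM in that tumor and at most 7.19 CPM elsewhere. Pigr, the receptor that carries polymeric IgA across epithelia, was at 30.0 CPM in IL-33 replicate 7 and at most 0.552 CPM in the other 15, whereas Cdx2, a gut transcription factor, was at 0 in every tumor. Genes of lymph nodes and lymphoid stroma summed to 209 CPM in IL-33 replicate 7 and to at most 78.2 CPM elsewhere. The part of such tissue in the Igha level was not tested.

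**Figure D3:**
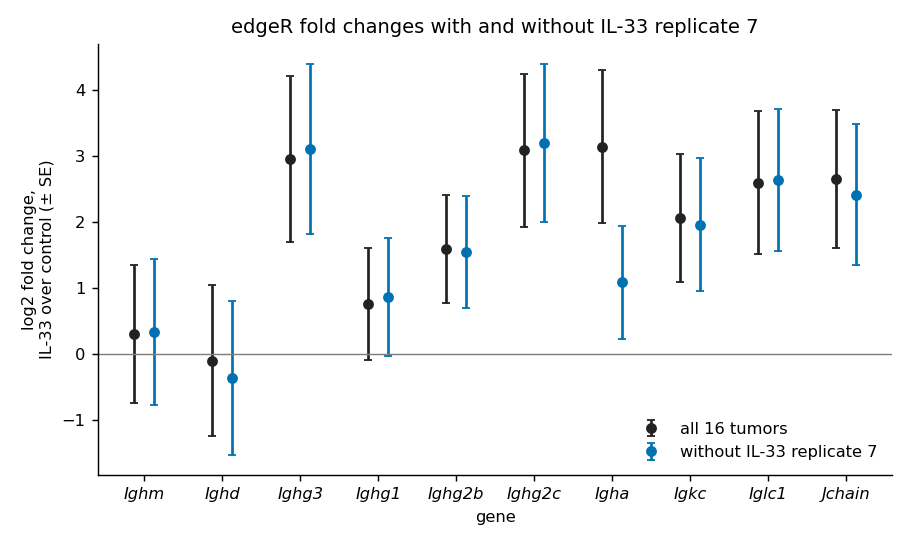
edgeR log2 fold change of each gene, IL-33 over control, with its standard error, for all 16 tumors (black) and without IL-33 replicate 7 (blue). Igha moves from 3.14 to 1.08, and the other 9 genes move by less than their standard errors.

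Light chains and Jchain were highest in IL-33 replicates 4, 7 and 8, the 3 tumors with the highest summed heavy-chain level. Igkc, the constant region of kappa chains, ran from 3.66 to 350 CPM (median 54.7) in control and from 4.22 to 1085 CPM (median 321) in IL-33 tumors, and IL-33 replicates 4, 5, 7 and 8 were above every control tumor. Its log2 fold change was 2.06 ± 0.97 (SE; unadjusted p = 0.0485, adjusted p = 0.443), and 1.96 without IL-33 replicate 7 (unadjusted p = 0.0698). Iglc1, a lambda constant region, was counted 78 times in all control tumors and 569 times in all IL-33 tumors, of which replicate 4 held 43.9%. The log2 fold change of Iglc1 was 2.60 ± 1.08 (SE; unadjusted p = 0.0277, adjusted p = 0.418), and 2.64 without IL-33 replicate 7. Iglc2 and Iglc3, which share 96.2% of their coding bases, averaged 1.33 and 0.322 CPM in control and 3.84 and 0.627 CPM in IL-33 tumors, and Iglc4 had no count in any tumor.

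Jchain, the joining chain of polymeric IgM and IgA, was at 0.889, 4.24 and 80.8 CPM (lowest, median, highest) in control and 0.973, 63.8 and 245 CPM in IL-33 tumors. IL-33 replicates 4, 7 and 8, at 245, 242 and 212 CPM, were above every control tumor. The log2 fold change was 2.65 ± 1.05 (SE; unadjusted p = 0.0215, adjusted p = 0.418), 2.41 without IL-33 replicate 7 (unadjusted p = 0.0378), and the exact permutation p of 0.0873 was the smallest of the 10 genes.

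**Figure D4:**
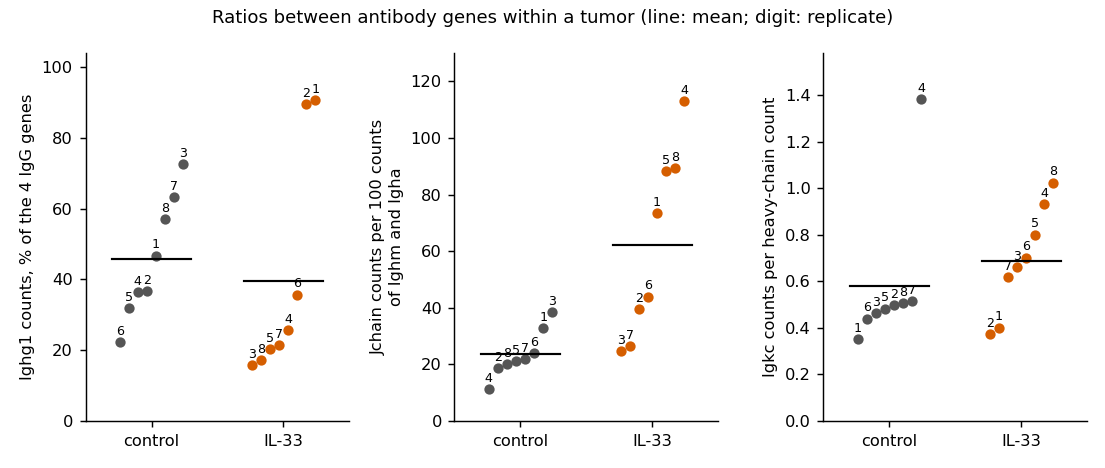
Ratios of counts within a tumor, with 1 point per tumor labelled by its replicate and the group mean as a line: Ighg1 as % of the 4 IgG genes, Jchain per 100 counts of Ighm and Igha, and Igkc per heavy-chain count. Ighg1 is 90.8% and 89.6% of IgG in IL-33 replicates 1 and 2 and 15.9% to 35.7% in the other 6, and Igkc per heavy-chain count is highest in control replicate 4 at 1.39.

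Ratios within a tumor do not scale with its total count, but a ratio to few counts is imprecise. Iglc1 had 1 count in control replicates 5 and 6 and IL-33 replicate 2. It had 0 in IL-33 replicate 6, and in such tumors the 0.5 added to each count weighs on the ratio. The log2 ratio of Igkc to Iglc1 was 6.78 ± 1.05 (SD, n = 8) in control and 7.47 ± 0.82 (SD, n = 8) in IL-33 tumors (difference 0.69, exact permutation p = 0.164, and p = 0.213 without IL-33 replicate 7). That of Jchain to Igkc was −2.65 ± 0.81 and −2.25 ± 0.46 (difference 0.41, exact permutation p = 0.251, and p = 0.441 without IL-33 replicate 7). Neither difference was larger than the spread between tumors.

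Set against the classes it joins, Jchain was uneven. Its counts per 100 counts of Ighm and Igha were 11.4 to 38.6 in control tumors and 24.6 to 113 in IL-33 tumors. IL-33 replicates 1, 2, 4, 5, 6 and 8, at 73.5, 39.6, 113, 88.3, 43.9 and 89.4, were above every control tumor. Replicates 2 and 6 rest on 38 and 18 Jchain counts, so counting error alone could place them within the control range. IgG genes held 63.1% to 92.7% of the heavy-chain counts in these 6 IL-33 tumors, compared with 36.2% to 85.4% in control tumors. IL-33 replicate 7, rich in Igha, was at 26.3, within the control range. This ratio was chosen after its parts were seen and was not tested.

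Genes of the B lineage were described from fixed lists. Of 14 B cell genes tested, 0 were higher and 0 lower at an unadjusted p under 0.05 by edgeR (median log2 fold change 0.30), among them Cd79b, a signaling part of the B cell receptor (3.69 and 7.00 CPM in control and IL-33, unadjusted p = 0.195). Of 14 plasma cell genes, 5 were higher and 0 lower with all tumors and also without IL-33 replicate 7, while none passed adjustment (median log2 fold change 0.44). Over all genes 9.99% were higher with all tumors and 1.83% without IL-33 replicate 7. Mzb1, a chaperone of antibody assembly, averaged 2.16 CPM in control and 21.4 CPM in IL-33 tumors (log2 fold change 3.24, unadjusted p = 0.00420). Derl3, of the degradation machinery of the endoplasmic reticulum, averaged 0.465 and 3.89 CPM (2.87, unadjusted p = 0.00753). Irf4 and Pou2af1, transcription regulators of the lineage, had log2 fold changes of 1.75 and 2.07, and Eaf2, the last of the 5, of 1.58. The list's most abundant genes, Txndc5 and Sdc1, had log2 fold changes of 0.031 and −0.16. Of the other genes not called, Tnfrsf17 and Tnfrsf13b were at 1.36 and 0.61, and Xbp1 and Prdm1 at 0.25 and 0.27. Fkbp11, Creld2 and Herpud1 were at −0.35, −0.38 and −0.042.

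Lists of related processes and cells are given by their counts. Of 13 genes of the germinal center and of switching, 0 were higher and 0 lower by edgeR (median log2 fold change 0.13). The background over all genes was 9.99% higher and 1.17% lower, or 1.83% and 2.29% without IL-33 replicate 7. Of 15 switch cytokine and receptor genes tested, 1 was higher (Cd40lg, at 0.00883 and 0.0814 CPM on average) and 0 lower. Without IL-33 replicate 7 both counts were 0, but Cd40lg then had too few counts to be tested. Among the cytokine transcripts, Il4 and Il5 were near the limit of counting, at most 0.114 and 0.110 CPM. Ifng was at most 3.32 CPM, in control replicate 7, and Tgfb1 averaged 106 CPM in control and 108 CPM in IL-33 tumors. Of 8 B-1 cell genes 0 were higher and 0 lower. Of 10 Fc and polymeric immunoglobulin receptor genes 1 was higher, Pigr, and 0 without IL-33 replicate 7. Among 8 lymph node and lymphoid stroma genes tested, 1 was higher with all tumors (Ccl21a), and without IL-33 replicate 7 Ccl21a was lower. The 8 T cell and 7 macrophage genes gave 0 higher and 0 lower with all tumors, and 1 T cell gene, Il7r, was higher without IL-33 replicate 7. No gene of any list passed adjustment, and DESeq2, which called 0 of 16817 genes, called none of them either.

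The genes whose pattern was most like the antibody genes over the 16 tumors included plasma cell and B cell genes of the lists. Among 13049 genes outside the immunoglobulin genes with a mean of at least 1 CPM, Spearman's coefficient with the summed heavy-chain level was highest for Derl3 (0.96), Cd79a (0.95), Bhlha15 (0.94), Mzb1 (0.93) and Tent5c (0.91). Spearman's coefficient with Ighm was 0.92 for Cd79a and 0.90 for Nr5a2. For Ighd the genes were Ms4a1 (0.92), Tent5c (0.91) and Ak7 (0.88), and the coefficient with Ighg2c was 0.92 for Cd79a and 0.86 for Lax1. Igha was most like Cd79a, Nr5a2 and Ms4a1 (each 0.90), and Jchain most like Cd79a (0.95), Derl3 (0.95) and Bhlha15 (0.92). These are descriptions over 16 tumors, and within each tumor the compared genes share a library and its depth. Nr5a2 and Ak7 were highest in IL-33 replicate 7, at 57.8 and 15.3 CPM, and averaged 0.405 and 0.0215 CPM in control tumors. Only through that tumor did they reach the mean of 1 CPM, so most of their ranks come from low levels.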

How the data were processed

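Polyadenylated RNA of 16 tumors was sequenced, and the authors deposited 1 table per tumor with the raw count of reads on each of 22298 genes, not normalized. Per the labels, reads were aligned with HISAT2 to mm10 and counted with featureCounts. Versions, annotation release and use of strand are not given in the sources used here, so overlapping or antisense genes could share reads. Symbols (22255 genes) and positions came from GENCODE M21 (GRCm38). An allele of the 615 strain that differs from the reference Ighg2c could lose reads, and this was not tested.

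A gene entered the test with 10 or more counts summed over all tumors (16817 genes), using edgeR 4.0.16 (R 4.3.3; TMM, glmQLFit, glmQLFTest, Benjamini-Hochberg) without replicate numbers. The SE of an edgeR fold change was derived from the test, as the absolute log2 fold change over the square root of its F statistic. CPM is the count times 1e+06 over the tumor's total. Shares were taken over the 7 heavy-chain genes, in tumors with at least 20 such counts, and single values were compared by two-sided exact permutation over 12870 assignments. Lowest totals were 14139268 counts.

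Alternatives were DESeq2 1.42.0, upper-quartile factors, other filters, scaling without immunoglobulin genes, the replicate number as a block, other pseudocounts and scales, and each tumor left out. DESeq2 without IL-33 replicate 7 and shares per base of the secreted transcript were added after the data had been seen. The members and lists were chosen with earlier results of these data known. Named genes were all members, the other constant genes, up to 4 genes per list by smallest p or highest level, and the genes most alike in pattern, of which some are not reported here. The list genes Irf4, Pou2af1, Eaf2, Cdx2, Il4, Il5, Ifng, Tgfb1 and Wnt7a were named after their values were seen. So were Tnfrsf17, Tnfrsf13b, Xbp1, Prdm1, Fkbp11, Creld2 and Herpud1.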

Additional observations from a re-analysis of the deposited data

Results flagged for a closer look

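In 7 of 38 groups of 8 tumors, the highest or lowest tumor was farther from the next than Dixon's 95% limit allows. Chance gives about 1 in 20 for independent, normally distributed values. The 38 groups reuse the same tumors and genes, and the shares within a tumor are tied to each other. Whether 7 is more than chance gives therefore cannot be read from this rate. Control replicate 2 was at 14.9 CPM of Ighd, with 0.593 CPM in the next control tumor. IL-33 replicate 6 was at 1.35 CPM of Ighg1, with 32.7 CPM in the next lowest IL-33 tumor. Ighm held 47.6% of heavy-chain counts in IL-33 replicate 3, with 17.1% in the next. Ighg2b held 36.6% in control replicate 6, with 21.9% in the next. Igha held 74.2% in IL-33 replicate 7, with 20.7% in the next. The log2 ratio of Igkc to Iglc1 was 4.41 in control replicate 1, where it rests on 74 and 3 counts. The log2 ratio of Jchain to Igkc was −4.44 in control replicate 4, the tumor with 1.39 Igkc counts per heavy-chain count.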

How the results depend on the processing

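The number of members higher in IL-33 tumors at an unadjusted p under 0.05 was 6 under 5 other choices of tool, scaling or filter. It was 5 with DESeq2 without IL-33 replicate 7, and 3 to 8 with a tumor left out. Over all genes, 424 to 1848 were higher under those 5 choices. The numbers were 286 with DESeq2 without IL-33 replicate 7, and 289 to 1902 with a tumor left out. With filterByExpr only 9 members were tested. No member passed adjustment under any alternative. The replicate numbers did not pair the tumors (3 of 8 pairs had a correlation over 0.1, and 2 control and 2 IL-33 tumors matched their own number best). With the replicate block 2 members were higher, the calls over all genes went from 1876 to 318, and Ighd was at 1.47. Calls over all genes were 691 with DESeq2, 642 with filterByExpr, 651 without IL-33 replicate 7 and 678 with DESeq2 without it. Ighd, −0.10 in the main test, was 0.55, 0.71, 0.27 and 0.46 by permutation with pseudocounts of 0.5, 0.1 and 2 and with TMM-scaled CPM, and −0.52 to 2.45 with a tumor left out. The Ighm level was −0.084 to 1.98 with a tumor left out. The share of Ighm was −1.48 on the log2 scale, −16.6 points per base of exon and −18.4 to −10.2 points with a tumor left out. The share of Ighd was −0.75 points per base of exon and −0.77 to −0.40 points with a tumor left out. On the log2 scale the shares of Ighg3, Ighg1 and Igha turned to −0.30, −0.11 and −0.073. With a tumor left out, the share of Ighg1 was −5.46 to 7.00 points and that of Igha −2.77 to 7.61 points. Minimums of 1 or 100 heavy-chain counts kept all 16 tumors. Of 154 alternatives for the shares 137 kept direction and side of the threshold, of 269 for the levels 203, and of 38 for the ratios 38. The causes were not tested.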
